A study of Rattus norvegicus with 6 samples.

Results

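The transcripts of 5 genes of hepatic fatty acid synthesis were followed through the 6 RNA sequencing libraries of a rat (Rattus norvegicus) study of liver ischemia reperfusion (IR), in which the portal vein is clamped for a time and blood flow is then restored. The genes were chosen by Ensembl ID: Srebf1 (ENSRNOG00000003463), Acly (ENSRNOG00000016924), Acaca (ENSRNOG00000034013), Fasn (ENSRNOG00000045636) and Scd (ENSRNOG00000013552). All 5 were among the 26689 gene IDs counted, and all 5 were among the 9932 that passed the filter on low counts. The RefSeq table at hand lists the 5 symbols but no Ensembl ID, so the pairing of ID and symbol was taken from the rule that chose the genes and was not checked further.

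The groups were isolated hepatocytes and whole liver, each from animals with treated IR, with IR alone and from healthy untreated control animals. Treated animals were given Etanercept (9 mg/kg), a drug that traps the cytokine tumor necrosis factor, from 18 to 16 h ahead of IR. Nitroglycerin, which releases nitric oxide and widens vessels, was infused at 6 µg/kg/min until IR and throughout it. RNA was taken 1 day after IR. Hepatocytes came from other animals than the livers, by perfusion with collagenase. RNA of 3 animals was pooled into 1 library per group, so a difference between 2 libraries has no replicate check. The controls are labelled healthy and untreated, and no sham operation is named, so an effect of surgery itself cannot be told apart from IR. The sources used here do not give strain, sex, age or feeding state.

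Fatty acid synthesis turns cytosolic citrate into long-chain fatty acids. ATP citrate lyase (Acly) splits citrate into acetyl-CoA, acetyl-CoA carboxylase alpha (Acaca) makes malonyl-CoA, fatty acid synthase (Fasn) builds palmitate, and stearoyl-CoA desaturase (Scd) puts a double bond into saturated chains. Srebf1 encodes the transcription factors SREBP-1a and SREBP-1c, which bind the promoters of these enzyme genes, and in liver the pathway is known for its induction by insulin and by carbohydrate feeding.

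The promoters are shown because the 5 genes had the same 2 libraries at the top, as described below. RefSeq (GRCr8) start regions, from 250 bases before to 50 bases after a gene's start, were at hand for 3 of the 5 genes, Srebf1, Acly and Scd. All lie on the minus strand. The Srebf1 windows span chr10:45529115-45529414 for the upstream start and chr10:45518961-45519260 for the downstream start, the Acly window spans chr10:85963582-85963881 and the Scd window spans chr1:253231682-253231981. Each is written 5′ to 3′ with matches to the searched motifs, on either strand, in capitals.
Srebf1 upstream start: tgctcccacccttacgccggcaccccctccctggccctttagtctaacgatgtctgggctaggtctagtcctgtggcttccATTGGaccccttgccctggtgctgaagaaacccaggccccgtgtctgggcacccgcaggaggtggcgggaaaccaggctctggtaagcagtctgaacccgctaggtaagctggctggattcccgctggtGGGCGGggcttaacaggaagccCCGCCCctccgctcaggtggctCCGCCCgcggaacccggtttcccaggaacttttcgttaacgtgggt
Srebf1 downstream start: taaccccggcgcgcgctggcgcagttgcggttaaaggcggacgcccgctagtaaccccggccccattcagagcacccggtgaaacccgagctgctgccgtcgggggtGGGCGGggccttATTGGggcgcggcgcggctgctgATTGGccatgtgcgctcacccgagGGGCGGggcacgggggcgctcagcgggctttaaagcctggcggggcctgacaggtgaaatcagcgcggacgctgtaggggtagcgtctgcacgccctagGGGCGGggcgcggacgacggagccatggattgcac
Acly: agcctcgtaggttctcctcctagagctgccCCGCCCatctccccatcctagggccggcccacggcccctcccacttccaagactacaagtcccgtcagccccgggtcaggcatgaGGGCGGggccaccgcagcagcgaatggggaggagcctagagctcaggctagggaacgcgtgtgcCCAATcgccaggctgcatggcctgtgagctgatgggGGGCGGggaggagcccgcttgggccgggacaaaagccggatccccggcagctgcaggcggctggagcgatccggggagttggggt
Scd: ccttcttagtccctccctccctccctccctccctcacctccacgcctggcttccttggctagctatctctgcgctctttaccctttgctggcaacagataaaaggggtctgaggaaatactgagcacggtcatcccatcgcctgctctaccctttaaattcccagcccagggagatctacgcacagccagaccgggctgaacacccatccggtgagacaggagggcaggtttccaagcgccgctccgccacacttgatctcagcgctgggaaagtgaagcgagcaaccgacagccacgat
The motifs were CCAAT (bound by NF-Y), GGGCGG (bound by Sp1), the sterol regulatory element core TCACNCCAC and the E-box CACGTG. The downstream Srebf1 window held CCAAT on the strand opposite to the printed one, where it reads ATTGG, at positions -131 and -108 and GGGCGG at -143, -84 and 16. Positions give the leftmost base, with the gene's start as base 1. The upstream Srebf1 window held 1 CCAAT and 3 GGGCGG matches, and the Acly window also held 1 and 3. The Scd window held 0 matches to the 4 motifs, and TCACNCCAC and CACGTG were in none of the 4 windows. No 2 matches overlapped. Of all 33469 windows of this length, 37.5% held CCAAT, 33.1% held GGGCGG, 1.12% held TCACNCCAC and 6.42% held CACGTG, so the first pair of motifs is common. A match describes these letters and not a bound site. The lack of a match to these exact letters does not show that a site is absent.

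The libraries held between 1945331 (liver control) and 7160610 (liver IR) reads in genes. Levels are CPM, reads scaled to a common library size after TMM scaling, and intervals on them are 95% intervals for counting error only. The library labelled hepatocyte IR stood apart from the other hepatocyte libraries in the direction of liver control. Over the 961 genes of mean CPM at least 100, its log2 CPM less the hepatocyte mean had a Pearson r across genes of -0.52 with liver treated IR, -0.42 with liver IR and 0.56 with liver control, each less the liver mean. For hepatocyte control the values were 0.37, 0.24 and -0.36, and for hepatocyte treated IR 0.44, 0.39 and -0.49. By rank (Spearman rho) the values were weaker, at -0.37, -0.19 and 0.35 for the library labelled hepatocyte IR. They were 0.30, 0.095 and -0.25 for hepatocyte control and 0.29, 0.22 and -0.31 for hepatocyte treated IR. Over all 9932 genes these values lay between -0.11 and 0.11. Genes are not independent replicates, and the 3 values of a preparation are centred on 1 mean. Over the 961 genes hepatocyte control had the signs of hepatocyte treated IR, and the library labelled hepatocyte IR the opposite ones. Centring on 1 mean makes it close to forced that 1 library opposes the others, but not which library. Srebf1, Acly, Fasn and Scd are among these 961 genes, so the likeness is not independent of them. Whether the labels hepatocyte IR and hepatocyte control are exchanged, or the animals or the cell preparations differed, cannot be told apart here. The labels were kept as given. An exchange would turn the sign of every IR vs control ratio in hepatocytes, and the tests over both preparations use these labels too. The tests over 6 libraries, the order of levels and the likeness between the genes are also given without the library labelled hepatocyte IR, and a pair that uses it has no value without it.

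All 5 genes were highest in liver control and second highest in the library labelled hepatocyte IR. The same pair of libraries was on top for 8.78% of the 9932 genes. Without the library labelled hepatocyte IR, all 5 were highest in liver control, as were 18.8% of all genes. Srebf1, the regulator, was at 161, 355 and 215 CPM in hepatocytes with treated IR, IR and control (347, 1842 and 693 reads). In liver it was at 143, 152 and 380.3 CPM in treated IR, IR and control (1078, 1026 and 874 reads). The top 2 libraries had overlapping counting intervals for this gene, and liver treated IR, liver IR and hepatocyte treated IR lay close together at the bottom.

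Acly, the source of cytosolic acetyl-CoA, was at 128, 347 and 244 CPM in hepatocytes with treated IR, IR and control (276, 1798 and 787 reads). In liver it was at 119.9, 121 and 457 CPM (902, 821 and 1050 reads) in the same order. Hepatocyte control stood between the top pair and the 3 lowest libraries, at 1.91 times the next library, hepatocyte treated IR (1.66 to 2.19). Among those 3, neighbours in order did not separate beyond counting error.

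Acaca, which makes malonyl-CoA, had the fewest reads. It was at 21.8, 49.0 and 36.9 CPM in hepatocytes with treated IR, IR and control (47, 254 and 119 reads), and at 34.2, 28.5 and 61.8 CPM in liver (257, 193 and 142 reads). From hepatocyte control downwards, its 4 lowest libraries did not separate from their neighbours in order beyond counting error.

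Fasn, the synthase, was at 171, 323 and 255 CPM in hepatocytes with treated IR, IR and control (369, 1675 and 823 reads). In liver it was at 117, 127 and 621 CPM in treated IR, IR and control (883, 860 and 1426 reads). Its level in liver control was 1.92 times that in the library labelled hepatocyte IR (95% interval for counting error 1.79 to 2.06), against 1.07 to 1.32 times for the other 4 genes, and liver treated IR and liver IR were lowest.

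Scd, the desaturase, spanned the widest range of the 5. It was at 107.5, 933 and 64.8 CPM in hepatocytes with treated IR, IR and control (232, 4837 and 209 reads). In liver it was at 58.9, 64.9 and 1162 CPM (443, 439 and 2670 reads). Liver control and the library labelled hepatocyte IR were thus far above the other 4 libraries. The highest library was 19.7 times the lowest, against 2.65 to 5.29 times for the other 4 genes. A paralog, Scd2, is listed on the same rat chromosome, and how the counting split reads between the pair cannot be judged from the files.

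**Figure D1:**
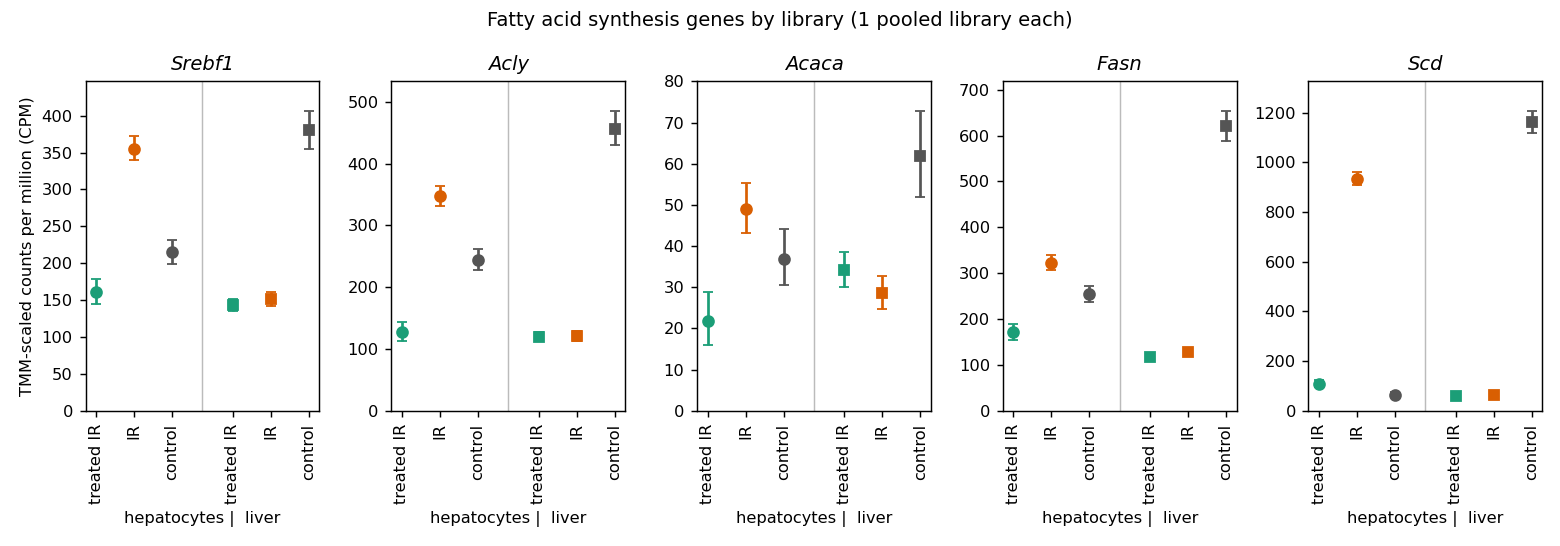
Level of each gene (CPM after TMM scaling, linear axis from 0, own scale per panel) in hepatocytes (circles) and liver (squares) with treated IR, IR and control; points are single pooled libraries and bars are 95% intervals for counting error. In every panel liver control and the library labelled hepatocyte IR are the top 2.

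In whole liver, IR was set against control to show how the 5 genes differed between these libraries. All 5 genes were lower in the IR library by the rule of size used for single pairs, at least 2-fold apart with a counting interval that excludes equality. By that rule 2.23% of all genes were lower in liver IR and 3.74% higher, 5.96% in all. Srebf1 was 2.51-fold lower (interval for counting error 2.29 to 2.75), Acaca 2.17-fold (1.73 to 2.70), Acly 3.77-fold (3.43 to 4.13) and Fasn 4.88-fold (4.48 to 5.32). Scd was 17.9-fold lower (16.2 to 19.9), and only 1 other gene of the 9932 had a lower ratio. The median log2 ratio of the 5 genes was -1.91, beside 0.05 over all genes.

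Set against Fasn, a comparison that does not depend on how libraries are scaled, Scd was lower in liver IR by a further 1.87 on the log2 scale (log2 difference -1.87, interval -2.07 to -1.68). Acaca was lower by less than Fasn, with a difference of 1.17 (0.84 to 1.51), as was Srebf1 with 0.96 (0.78 to 1.14). Of the 5 genes, the desaturase and the synthase thus had the lowest ratios of IR to control in liver and the carboxylase the one nearest to equality. In bulk tissue, fewer cells of a type and less RNA per cell cannot be told apart.

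Treated IR livers were set against IR livers in the same way, by 1 pooled library each. No gene of the 5 was called between treated IR and IR in liver, where 2.78% of all genes were (1.81% higher and 0.967% lower). The log2 ratios of treated IR to IR were -0.08 for Srebf1, -0.02 for Acly, 0.26 for Acaca, -0.11 for Fasn and -0.14 for Scd, and each counting interval included equality. With library totals as the only scaling they were all positive, between 0.25 and 0.65, so no direction can be read.

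Set against control, treated IR livers had lower levels of Srebf1 (2.65-fold), Acly (3.81-fold), Fasn (5.29-fold) and Scd (19.7-fold), 4 of 5 genes. Of all genes 2.4% were lower and 4.73% higher in that pair, 7.13% in all. Acaca was 1.81-fold lower (interval 1.46 to 2.23) and was not called. This comparison shares the control library with that of IR, so the 2 are not independent. Both rest on the liver control library, the shallowest of the 6. In liver IR alignments that were not unique made up 60.1% of all that was counted, against 41.1% to 46.3% in the other 5 libraries. A read may enter that count more than once, so this need not be a share of reads. The part of this in the liver results was not tested.

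In hepatocytes, as labelled, the same contrast ran the other way, and this direction rests on the 2 labels in doubt. In the library labelled hepatocyte IR all 5 genes were above the library labelled hepatocyte control with counting intervals that exclude equality, but only Scd passed the rule of size, where 9.43% of all genes were higher and 6.95% lower, 16.4% in all. Scd was 14.4-fold higher (interval for counting error 12.5 to 16.6), and 11 other genes had a higher ratio. Srebf1 was 1.66-fold higher (1.52 to 1.81), Acly 1.42-fold (1.31 to 1.55), Acaca 1.33-fold (1.06 to 1.67) and Fasn 1.27-fold (1.17 to 1.38). Relative to Fasn, Scd was higher by 3.51 on the log2 scale (3.27 to 3.74), and the intervals of Acly and Acaca included no difference from Fasn.

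**Figure D2:**
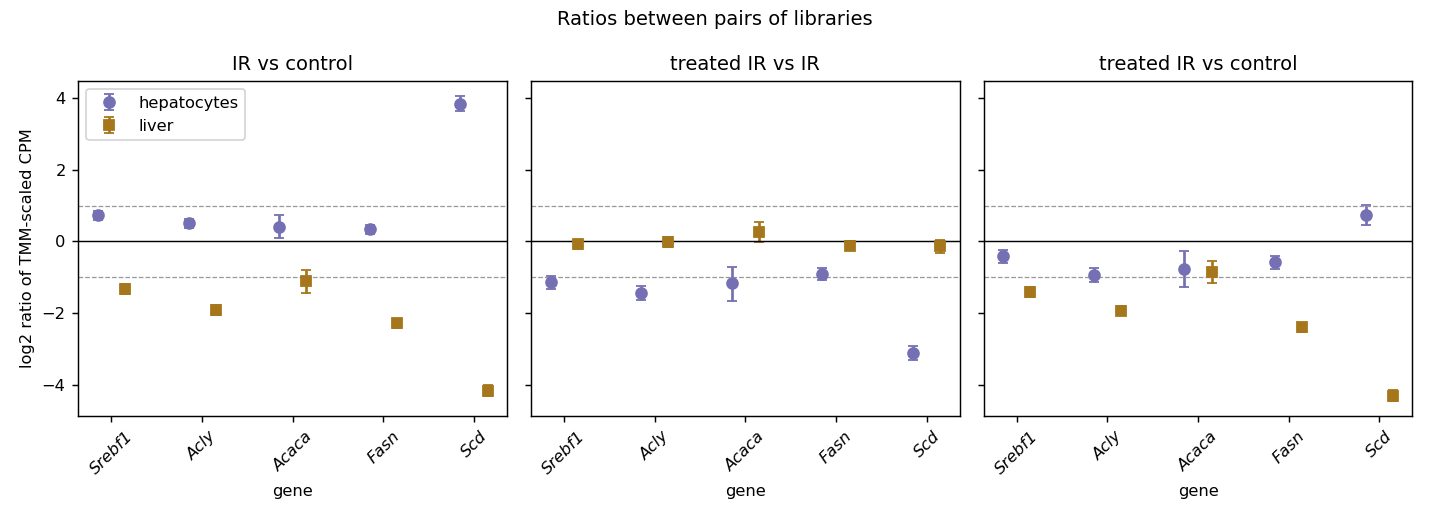
Log2 ratios of the 5 genes in hepatocytes (circles) and liver (squares) for IR vs control, treated IR vs IR and treated IR vs control; bars are 95% intervals for counting error, dashed lines mark 2-fold, and each ratio compares single pooled libraries. For IR vs control the 5 hepatocyte points, by the labels as given, lie above 0 and the 5 liver points below it.

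Between treated and untreated IR in hepatocytes, Srebf1 (2.21-fold), Acaca (2.25-fold), Acly (2.71-fold) and Scd (8.68-fold, interval 7.61 to 9.95) were lower in the treated library, 4 of 5 genes. In that pair 11.9% of all genes were lower and 11.2% higher, 23.1% in all, the largest share of the 6 pairs within a preparation. Fasn was 1.89-fold lower (interval 1.69 to 2.12) and was not called, although it was 1.21 lower on the log2 scale, and past 2-fold, with library totals alone. This contrast rests on the library labelled hepatocyte IR, which stood apart.

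The comparison of hepatocytes with treated IR and control does not use that library, but it uses the one labelled hepatocyte control. With the 2 labels exchanged it would be one of treated IR and IR. There 0 of the 5 genes were called, where 8.27% of all genes were (4.23% higher and 4.04% lower). Acly was 1.91-fold lower (interval 1.66 to 2.19) in treated IR, Acaca 1.69-fold (1.20 to 2.43), Fasn 1.49-fold (1.32 to 1.69) and Srebf1 1.34-fold (1.17 to 1.52), while Scd was 1.66-fold higher (1.37 to 2.01). With library totals alone Acly was called lower, at a log2 ratio of -1.17. The desaturase thus did not follow the other 4 genes between these libraries, and its log2 ratio exceeded that of Fasn by 1.31 (0.99 to 1.63).

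The IR vs control ratios of hepatocytes and liver were set side by side, since these contrasts share no library. The log2 ratio of IR to control in hepatocytes exceeded that in liver by 8.01 for Scd (interval for counting error 7.76 to 8.26), 2.63 for Fasn (2.46 to 2.801), 2.42 for Acly (2.24 to 2.60), 2.05 for Srebf1 (1.87 to 2.23) and 1.53 for Acaca (1.08 to 1.97). Only Scd was called in opposite directions in the 2 preparations, as were 1.13% of all genes (0.383% lower in liver and higher in hepatocytes, as Scd was, and 0.745% the other way). These gaps and shares hold for the hepatocyte labels as given. With hepatocyte IR and hepatocyte control exchanged, all 5 genes would be lower after IR in both preparations, and Scd would be called lower in both, with the same 0.383% of genes. In a fit of all 6 libraries that takes untreated and treated IR as alike, added after the data were seen, the difference for Scd was 7.24 (SE 1.68, edgeR adjusted p = 0.9999) and for Fasn 2.30 (SE 0.68, edgeR adjusted p = 0.9999). That fit called 0 genes (0%), with 296 at an unadjusted p under 0.05, and no other tool was run on it.

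**Figure D3:**
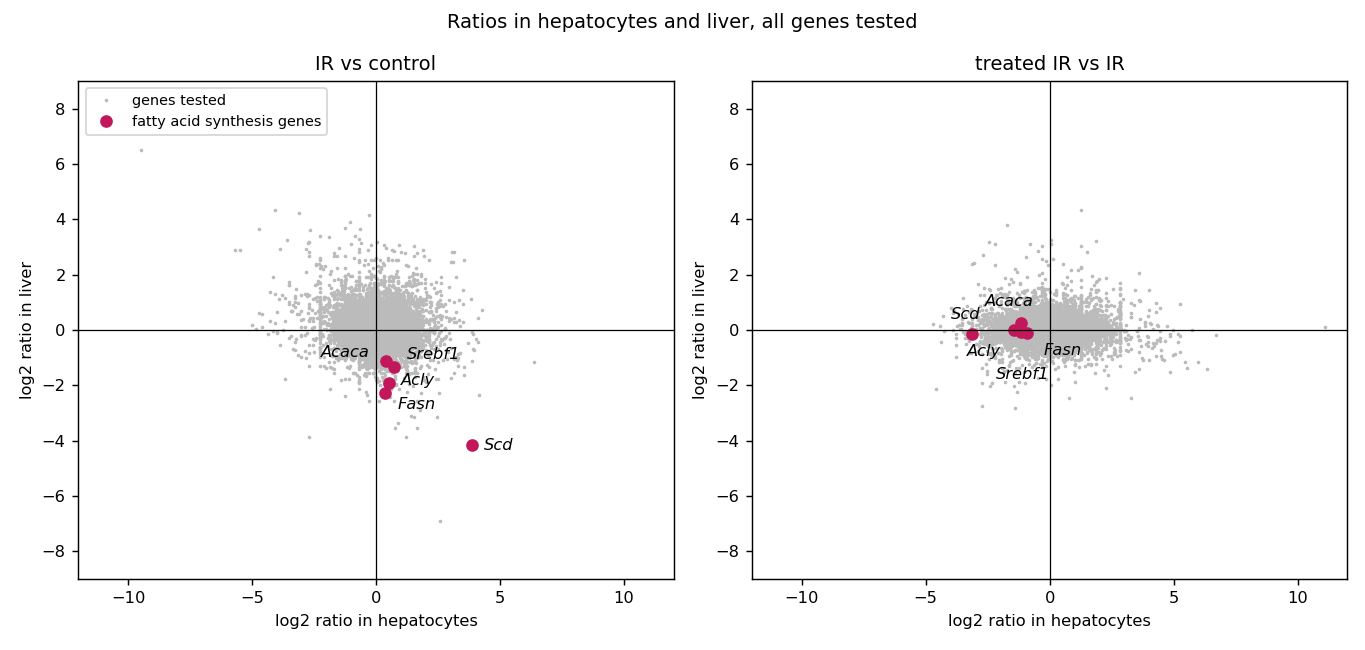
Log2 ratios in hepatocytes (x axis) and liver (y axis) of IR vs control (left, 9870 genes) and treated IR vs IR (right, 9865 genes), for the genes tested with a read in each pair (grey) and the 5 fatty acid synthesis genes (coloured, named). In the left panel the 5 genes lie below 0 in liver and, by the labels as given, above 0 in hepatocytes, with Scd farthest out.

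Hepatocytes were also compared with liver within each condition, by the same rule of size. In treated IR 0 of 5 genes were called, where 19.2% of all genes were (6.95% higher and 12.2% lower). With library totals alone, which shift this pair by -0.64 on the log2 scale, Acaca was called lower (-1.29) and Srebf1 (-0.48), Acly (-0.55) and Fasn (-0.10) turned below 0. In IR 4 of 5 were higher in hepatocytes, where 5.9% of all genes were higher and 11.5% lower, 17.4% in all, with Scd 14.4-fold (interval 13.05 to 15.9), Acly 2.86-fold, Fasn 2.54-fold and Srebf1 2.34-fold higher, and Acaca 1.72-fold. In control Scd was 17.9-fold lower in hepatocytes (15.6 to 20.7) and Fasn 2.43-fold lower, 2 of 5. Of all genes 7.22% were lower and 3.81% higher in that pair, 11% in all. With library totals alone all 5 were called lower there, with Srebf1 at -1.16, Acly at -1.24 and Acaca at -1.08 on the log2 scale. For all 5 genes the ratio was above 1 in IR and below 1 in control under both scalings, and the conditions are those of the labels as given. Over the 3 conditions Scd averaged 369 ± 490 CPM in hepatocytes and 429 ± 635 CPM in liver (SD across conditions, n = 3 libraries each), and Fasn 249.8 ± 76.2 and 288 ± 288 CPM.

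A model of the 6 libraries with terms for preparation and condition asked for differences common to hepatocytes and liver (edgeR, quasi-likelihood). None of the 5 genes passed for hepatocytes vs liver, where 5.32% of all genes did (0.433% higher and 4.88% lower), and their adjusted p-values were 0.973 to 0.983. For treated IR vs IR, treated IR vs control and IR vs control, 0 of 9932 genes (0%) passed, with 295, 229 and 332 at an unadjusted p under 0.05. DESeq2 called 1, 0 and 0 genes and limma-voom 0, 0 and 0, and none of these was among the 5. For treated IR vs control Fasn had a log2 ratio of -1.67 (SE 0.55) and Acly of -1.53 (SE 0.51), both at an edgeR adjusted p of 0.9999, with ratios below 1 in both preparations. Scd had a log2 ratio of -3.18 there (SE 1.33, edgeR adjusted p = 0.9999). This value was not common to both preparations, with a log2 ratio of -4.30 in liver and 0.73 in hepatocytes as labelled.

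These tests depended on single libraries and on the filter, and a group left with 1 library is assumed to vary like the others. Such a group adds nothing to the spread of its fit, which also has fewer residual degrees of freedom. Without the library labelled hepatocyte IR, liver alone stood for IR. The log2 ratios of IR to control were then -1.12 (Srebf1), -1.70 (Acly), -1.11 (Acaca), -1.92 (Fasn) and -3.41 (Scd). This omission takes out the library whose ratios to its control ran opposite to those of liver, by the labels as given. For treated IR vs control, with hepatocytes still part of the fit, the same omission called 36 genes, among them Acly (-1.46, edgeR adjusted p = 0.0193), Fasn (-1.52, edgeR adjusted p = 0.0203) and Scd (-1.87, edgeR adjusted p = 0.0417). Without liver control the log2 ratio of IR to control for Scd was 3.29 (edgeR adjusted p = 0.0833), and all 5 genes had positive ratios. For treated IR vs control the same omission left Fasn at -0.36, Acly at -0.53, Acaca at -0.32 and Srebf1 at -0.12, and turned Scd to 1.67, each at an edgeR adjusted p of 1. Without liver IR, the log2 ratios of IR to control were 0.46 (Srebf1), 0.24 (Acly), 0.39 (Acaca), -0.18 (Fasn) and 2.11 (Scd). In the same order of genes, those of treated IR to IR were then -1.38, -1.68, -1.20, -1.32 and -3.94. Without hepatocyte control, those of treated IR to control were -1.65, -2.24, -1.16, -2.59 and -4.87. Without hepatocyte treated IR they were -0.98, -1.45, -0.51, -1.89 and -3.39. For hepatocytes vs liver the log2 ratio of Scd was 2.37 without liver control and 2.37 without hepatocyte control. It was -1.71 without the library labelled hepatocyte IR. With no filter on low counts 31 of 16548 genes passed for treated IR vs IR, among them Scd (-2.44, edgeR adjusted p = 0.00304). For treated IR vs control 14 passed, among them Scd (-3.17, edgeR adjusted p = 0.000201). Where both preparations inform treated IR vs control, the value for Scd joins ratios of opposite direction.

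Some other measures had their extreme value in the library where the 5 genes were highest in each preparation, and others did not go the same way. Together the 5 took 0.0468% of reads in genes in hepatocyte treated IR, 0.195% in the library labelled hepatocyte IR and 0.0763% in hepatocyte control, and 0.0588%, 0.0466% and 0.317% in liver treated IR, IR and control. The most abundant gene of all 6 libraries took 8.10%, 19.4% and 10.2% in hepatocytes and 8.76%, 13.8% and 14.9% in liver, in the same order. The share of uniquely aligned reads that fell on more than 1 gene was 0.798%, 0.358% and 0.621% in hepatocytes, and 0.487%, 0.446% and 0.369% in liver. In each preparation the library where the 5 genes were highest thus also had the highest share of the most abundant gene and the lowest share of ambiguous reads. Between liver treated IR and liver IR these measures did not follow the share of the 5 genes. Reads in genes and genes detected were highest of the hepatocyte libraries in the one labelled IR (5335184 and 12736). They were lowest of the livers in control (1945331 and 12729). The part of these measures in the results was not tested.

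**Figure D4:**
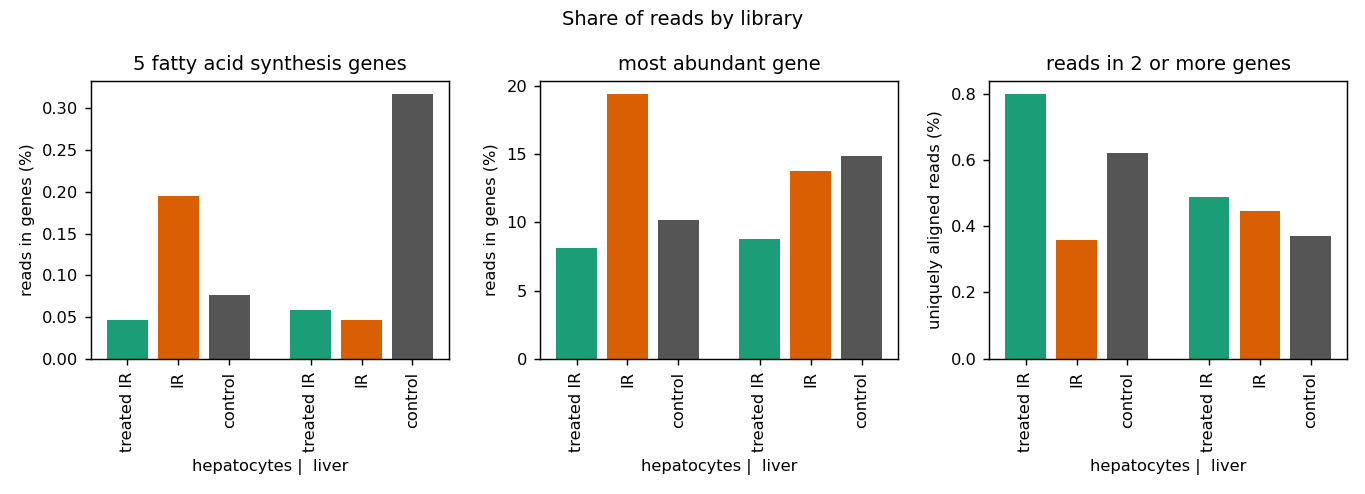
Share of reads (bars from 0, in percent) taken by the 5 fatty acid synthesis genes together, by the most abundant gene and by ambiguous reads, in hepatocytes and liver with treated IR, IR and control (1 library each). The tall bars of the first panel, the library labelled hepatocyte IR and liver control, are the tallest of their preparation in the middle panel and the shortest in the last.

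The likeness of the 5 genes to one another was described over all 6 libraries. After centring log2 CPM in each preparation, each gene's Pearson r with the mean of the other 4 over the 6 libraries was 0.99 for Srebf1, 0.96 for Acly, 0.93 for Fasn, 0.90 for Acaca and 0.89 for Scd. Without the library labelled hepatocyte IR these values were 0.99, 0.96, 0.997, 0.86 and 0.88 in the same order of genes. Without liver control as well, Srebf1, Acly, Fasn and Acaca had values of 0.98, 0.998, 0.98 and 0.82, and Scd had -0.99. With 2 libraries left in each preparation, centring leaves 1 difference in each, and r mostly reflects the sign of the larger one. The value for Scd thus restates treated IR vs control in hepatocytes. There its log2 ratio was 0.73, beside -0.93 to -0.42 for the other 4 genes. All these r values are descriptions of few pooled libraries in 2 centred sets. Of 5682 genes of mean CPM at least 10, 130 had an r of at least 0.90 with the mean of all 5, counting the 5 themselves, which enter that mean. The genes outside the 5 with the highest r were ENSRNOG00000032908 (r = 0.995) and ENSRNOG00000008305 (r = 0.994), which had far narrower ranges. ENSRNOG00000008305 was at 169.7, 211 and 182 CPM in hepatocytes with treated IR, IR and control and at 117, 121 and 154 CPM in liver. The lowest r values were those of ENSRNOG00000018042 (r = -0.998) and ENSRNOG00000014165 (r = -0.994). The files and the reference do not pair these IDs with symbols.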

How the data were processed

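RNA of 3 animals was pooled for each of the 6 groups, enriched for mRNA and sequenced (Ion Torrent Proton), per the labels' protocols and the design text. The authors deposited whole-number read counts by Ensembl ID for every library. The submitters' processing notes name TopHat2 2.0.13 and HTSeq 0.6.1. The build, annotation and strandedness used are not given in the sources used for this work, and counts of genes that overlap, lie antisense or have a close copy are uncertain for that reason. Lines that name no gene entered neither totals nor tests. Alignments that were not unique, also left out, were 41.1% to 60.1% of all that was counted, which need not be a share of reads. Reads outside genes were 6.23% to 8.34% of uniquely aligned reads, and ambiguous reads 0.358% to 0.798%.

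Groups were taken from sample titles. Low counts were removed by filterByExpr in edgeR (minimum count 10, grouped by condition). This left 9932 genes, and libraries were scaled by TMM (factors 0.794 to 1.24). A count of 0 was set to 3 reads in ratios, equal to 0.399 to 1.39 CPM, and none of the 5 genes had such a count. For a pair of libraries the TMM-scaled ratio is given with its 95% Clopper-Pearson interval and no p-value, since each group has 1 library. A gene was called when its ratio reached 2-fold and its interval left out equality. Differences of log2 ratios have normal-approximation intervals. Intervals cover counting error only and no variation between animals or pools. The reads carry no molecular identifiers, so copies of 1 molecule may be counted more than once. Effects across preparations come from a quasi-likelihood test in edgeR with additive terms for preparation and condition, which leaves 2 residual degrees of freedom. Standard errors were taken from the log2 ratio and its F statistic. The common biological coefficient of variation was 0.288. P-values were adjusted over all 9932 genes (Benjamini-Hochberg, threshold 0.05). Nothing in the labels numbers replicates, and the 2 pools of a condition came from separate animals. Alternatives tried were size factors from DESeq2, library totals alone, no filter, a minimum count of 50, DESeq2's Wald test, limma-voom and leaving out each library. A fit with an interaction of preparation and any IR, ratios of hepatocytes to liver within a condition with their alternatives, and the likeness of libraries and genes with libraries left out were chosen after seeing the data. Fits of 1 preparation that took IR and treated IR as alike were run and are not reported, since their spread rested on that choice. The tests were tried on simulated counts with known changes. The software was edgeR 4.0.16, DESeq2 1.42.0 and limma 3.58.1 under R 4.3.3.

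The 5 genes and all lists were chosen with earlier results of these data known. The rule for named genes took the 5 genes, members of 3 lists of partner genes (fatty acid synthesis partners, lipogenic regulators and triglyceride assembly) and the IDs most and least alike in pattern. Because 0 of 26689 IDs matched a symbol in the reference, those lists and the lists of cell type markers could not be read, and the labelled tissue and cell type were not checked against markers.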

Additional observations from a re-analysis of the deposited data

Results flagged for a closer look

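By the labels as given, Scd went in opposite directions after IR in the 2 preparations. Its log2 ratio of IR to control was 3.85 in hepatocytes and -4.16 in liver, each from 1 library a group, so the rule of size found it apart in both. That rule gives no test of the gap between hepatocytes and liver, which was thus not tested by it. A fit across all genes that takes untreated and treated IR as alike was added after the data were seen. It gave a log2 difference of 7.24 for Scd (SE 1.68, edgeR adjusted p = 0.9999), which is another contrast than IR alone. In hepatocytes Scd was 8.68-fold apart between the 2 libraries so joined, and that difference enters the spread of the fit. The hepatocyte value rests on the library labelled hepatocyte IR. Over the 961 genes of mean CPM at least 100, its centred levels had an r of 0.56 with liver control and -0.42 with liver IR. For hepatocyte control these values were -0.36 and 0.24. By rank (Spearman rho) they were weaker, at 0.35 and -0.19 for the library labelled hepatocyte IR and -0.25 and 0.095 for hepatocyte control. Over all 9932 genes such values lay between -0.11 and 0.11, and those of a preparation are centred on 1 mean and so not independent. Such centring makes it close to forced that 1 library opposes the others, and Scd itself is among the 961 genes. With these 2 hepatocyte labels exchanged the hepatocyte ratio would turn negative, the direction seen in liver.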

How the results depend on the processing

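No paired analysis was possible because each group holds 1 library and the labels number no replicates. With DESeq2's size factors, and with a minimum count of 50 or no filter in the pairs, the number of the 5 genes called stayed within 1.5 times in each of the 6 pairs within a preparation. Among these, library totals alone moved it further once, to 1 gene lower (Acly) for treated IR vs control in hepatocytes. With library totals, 123 genes were higher and 575 lower for IR vs control in liver (371 and 221 with TMM), 610 and 26 for treated IR vs IR in liver (180 and 96), 647 and 1906 for treated IR vs IR in hepatocytes (1113 and 1180), and 187 and 804 for treated IR vs control in hepatocytes (420 and 401). This scaling shifts log2 ratios of treated IR vs IR in liver by 0.39 and of IR vs control in liver by -0.32. A minimum count of 50, which tests 5902 genes, left 157 higher and 98 lower, 34 and 24, and 169 and 125 in liver for IR vs control, treated IR vs IR and treated IR vs control, and 523 and 358, 666 and 748, and 222 and 246 in hepatocytes. No filter gave 321 and 165 for treated IR vs IR in liver. For hepatocytes vs liver within a condition, library totals gave 108 higher and 3032 lower in treated IR and 161 and 1169 in control, with 1 and 5 of the 5 genes lower, against 0 and 2 with TMM. A minimum count of 50 gave 371 and 532 in treated IR, 274 and 374 in IR and 212 and 273 in control, with no change in the number of the 5 genes called.

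In the tests across preparations, no filter called 3, 31 and 14 genes for IR vs control, treated IR vs IR and treated IR vs control, with 1 of the 5 genes (Scd) lower in each of the last 2. A minimum count of 50 called 158 for hepatocytes vs liver (528 in the main analysis), and DESeq2 called 1 for treated IR vs IR. Library totals alone turned hepatocytes vs liver to -0.14 for Srebf1, -0.11 for Acly and -0.11 for Fasn on the log2 scale. Leaving out each library in turn gave 3 to 292 genes for IR vs control, 0 to 558 for treated IR vs IR and 0 to 36 for treated IR vs control. Of the 5 genes, 0 to 2, 0 to 2 and 0 to 3 were then lower, and 0 to 1 higher and 0 to 1 lower for hepatocytes vs liver. The log2 ratios ranged for IR vs control from -1.12 to 0.49 (Srebf1), -1.70 to 0.24 (Acly), -1.11 to 0.39 (Acaca), -2.07 to 0.16 (Fasn) and -3.41 to 3.29 (Scd). For treated IR vs IR they ranged from -1.38 to 0.17, -1.68 to 0.24, -1.20 to 0.27, -1.32 to 0.39 and -3.94 to 1.54 in the same order of genes. For hepatocytes vs liver they ranged from -0.38 to 0.70, -0.46 to 0.81, -0.75 to 0.096, -0.43 to 0.95 and -1.71 to 2.37. For treated IR vs control they ranged from -1.65 to -0.12, -2.24 to -0.53, -1.25 to -0.32, -2.59 to -0.36 and -4.87 to 1.67. Apart from the library left out, the cause of these shifts was not tested. Depth limits Acaca most, with 47 reads in hepatocyte treated IR.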
